A study of Rattus norvegicus with 91 samples.

Results

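The genes described here encode the protein parts of the spliceosome and the hnRNP proteins of rat liver after methylprednisolone, a synthetic glucocorticoid. Members were all probe sets annotated with 1 gene symbol that begins with Snrp, Sf3a, Sf3b, U2af, Prpf, Srsf or Hnrnp. They numbered 71 of 15923 probe sets (51 genes) in the long course and 29 of 8799 probe sets (17 genes) in the short course, and all 17 genes were also among the 51. A filter that left out the dimmest 30% of probe sets kept 65 member probe sets (50 genes, without Snrpa) and 24 member probe sets (16 genes, without Srsf10). In each course 8 further probe sets carried several symbols and were left out.

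Both courses used liver RNA of Wistar rats labelled with a dose of 50 mg/kg methylprednisolone, each time being compared with the arrays called Ctr in the same course. The short course held 47 arrays at 16 times between 0.25 and 72 h, with 2 or 3 arrays a time and 4 Ctr arrays at time 0. The long course held 44 arrays of another Affymetrix design, 4 at each of 10 times between 6 and 168 h and 4 Ctr arrays. The labels give no age, route, schedule or vehicle, nor what the Ctr rats received, and do not say whether replicates were separate animals, so the errors below measure the spread between arrays. In whole liver, a change in the cells present and a change in RNA per cell cannot be told apart. The 6 hepatocyte markers measured in each course all lay above the 98th percentile of signal (lowest 98.1, Alb in the short course).

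Splicing removes introns from new transcripts. Most small nuclear ribonucleoproteins (snRNPs) are an RNA wrapped in a ring of Sm proteins and further partners. The snRNPs recognise the intron ends, while U2AF and the SF3a and SF3b complexes help to fix the branch point. The Prpf proteins, named after yeast mutants, assemble and activate the catalytic machine. SR proteins (Srsf genes) mostly favour use of an exon, and hnRNP proteins coat nuclear RNA and often oppose or redirect that choice. Liver makes large amounts of plasma protein mRNA and needs this machinery throughout, and glucocorticoids act through a nuclear receptor that alters transcription.

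The promoters of 5 genes on which the results turn are shown because all 5 transcripts were lower at 72 to 168 h than at 6 to 18 h in the long course. Each is the 120 bases before the RefSeq gene start in the rat assembly GRCr8, read on the strand of the gene. Capitals mark, on either strand, the CCAAT box, the GC box with the letters GGGCGG or the ETS transcription factor site with the letters CCGGAAG, and the GC boxes of Srsf2 overlap.
Srsf2 (chr10:102554142-102554261, minus strand), an SR protein: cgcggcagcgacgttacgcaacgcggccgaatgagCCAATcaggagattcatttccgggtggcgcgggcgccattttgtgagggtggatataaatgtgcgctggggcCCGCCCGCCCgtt
Hnrnpab (chr10:36363899-36364018, minus strand), an hnRNP protein: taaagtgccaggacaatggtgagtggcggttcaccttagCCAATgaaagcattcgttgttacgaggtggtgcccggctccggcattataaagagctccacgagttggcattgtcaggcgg
Hnrnpc (chr15:27282716-27282835, minus strand), an hnRNP protein: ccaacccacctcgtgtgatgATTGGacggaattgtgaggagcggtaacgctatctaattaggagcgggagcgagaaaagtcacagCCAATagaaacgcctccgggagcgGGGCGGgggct
Snrpb (chr3:137832480-137832599, minus strand), an Sm protein: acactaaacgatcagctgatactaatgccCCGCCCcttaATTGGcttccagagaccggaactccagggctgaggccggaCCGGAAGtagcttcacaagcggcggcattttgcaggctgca
Prpf19 (chr1:216966387-216966506, plus strand), a Prpf protein: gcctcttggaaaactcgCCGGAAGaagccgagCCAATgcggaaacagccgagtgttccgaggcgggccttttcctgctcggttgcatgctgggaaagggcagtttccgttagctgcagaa

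The 5 are a choice from 19 genes lower in that comparison, and a CCAAT box stood in the 250 bases before the start in 11 of the 18 of these with a promoter. A promoter was found for 49 of the 51 genes, and each motif was searched on both strands of those 250 bases. CCAAT stood in 25 of 49 (51.0%, against 34.3% of 27457 rat promoters), GGGCGG in 28 of 49 (57.1% against 32.4%) and CCGGAAG in 12 of 49 (24.5% against 7.74%). The E-box CACGTG stood in 5 of 49 (10.2% against 5.79%) and the TATA box TATAAA in 4 of 49 (8.16% against 13.1%). The full palindromic glucocorticoid response element, searched as an exact match with free spacer bases, stood in 0 of 49 (0.0036% of all promoters). So exact a match is too rare in any promoter for 0 of 49 to set the members apart. The cAMP response element TGACGTCA stood in 0 of 49 (1.70%). These are matches of letters in 1 window per gene and say nothing of binding.

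In the short course the members that changed were higher between 4 and 8 h, and they were back near Ctr by 12 h. At 4 to 8 h, 11 of 24 member probe sets were higher (45.8%, against 16.4% of the 6118 probe sets tested) and 0 were lower (10.5% of all). Counted by the brightest probe set of each gene, 8 of 16 genes were higher, namely both Sm protein genes, Srsf2 and 5 hnRNP genes. The median log2 change of the 24 was 0.46, against 0.10 over all probe sets, on the log2(signal + 32) scale used for every change below. A call here is an adjusted p under 0.05 in limma after Benjamini-Hochberg adjustment over all probe sets tested. Scaling shifted the median of all probe sets to 0.03 with quantile normalization and to -0.01 with median centring. Members called higher then numbered 8 and 8 with 0 lower, while all probe sets split into 796 higher and 743 lower, and 693 higher and 870 lower, against 1005 higher and 645 lower as reported. One array of this window, 6 h replicate 3, was deposited on a far lower scale and was rescaled. With this array left at that scale, 0 members passed, and with it left out 11 did. The share of all probe sets called with this array at that scale or left out is not given here.

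**Figure D1:**
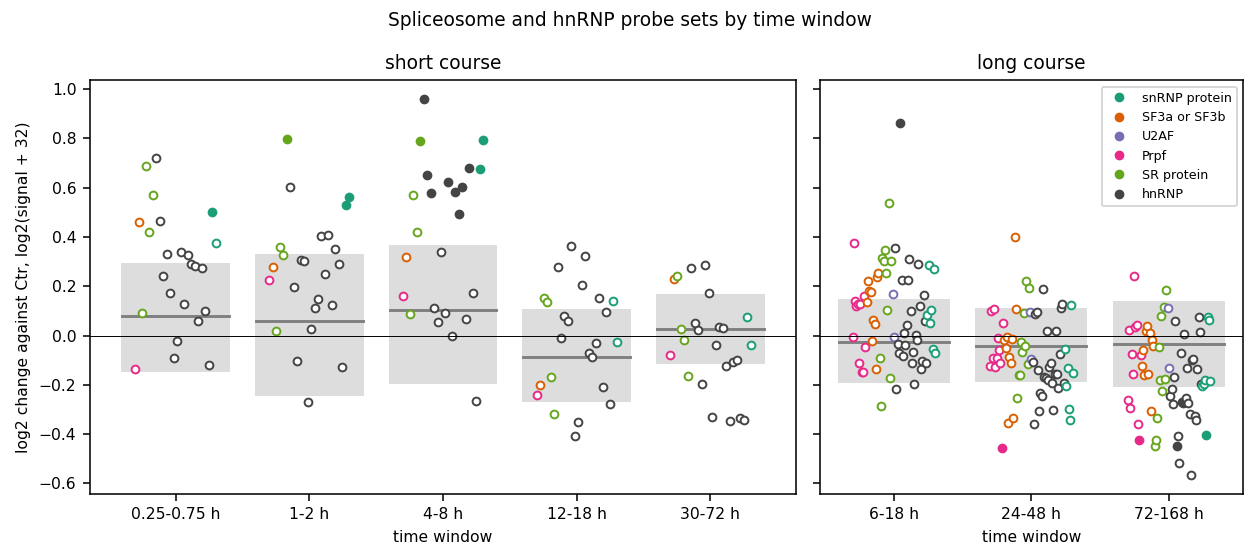
Log2 change against Ctr on the y axis for each member probe set in each time window (x axis), short course on the left and long course on the right. Circles are member probe sets coloured by role, filled where adjusted p was under 0.05, and grey boxes with a line give the quartiles and median of all probe sets tested; the filled circles are above 0 at 4 to 8 h in the short course and, apart from Hnrnpab at 6 to 18 h, below 0 in the long course.

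Snrpb and Snrpd3 encode Sm proteins, which form the ring around the snRNA. Snrpd3 had signals of 1057, 1374 and 1819 (lowest, median and highest of 17 arrays) at 4 to 8 h, against 623, 649, 949 and 1057 on the 4 Ctr arrays. All 17 arrays were above the Ctr mean, and the lowest, at 7 h, did not exceed the highest Ctr array. The log2 change was 0.79 ± 0.11 (SE; limma adjusted p = 6.87e-06). Snrpb had 1736, 2396 and 2959 at 4 to 8 h, against 1088, 1215, 1771 and 1797 on the Ctr arrays, a log2 change of 0.68 ± 0.13 (SE; limma adjusted p = 0.000317). Only slight overlap with Ctr remained, and all 17 arrays were above the Ctr mean.

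Both Sm genes were higher before 4 h as well. At 1 to 2 h, 3 of 24 member probe sets were higher (7.22% of all probe sets), namely Srsf2, Snrpd3 and Snrpb. Snrpd3 had 1082, 1174 and 1354 at 1 h and 1132 and 1261 at 2 h, all above the 4 Ctr arrays (log2 change 0.56 ± 0.14, SE; limma adjusted p = 0.00801). Snrpb changed by 0.53 ± 0.16 at 1 to 2 h (SE; limma adjusted p = 0.0276) and by 0.50 ± 0.14 at 0.25 to 0.75 h (SE; limma adjusted p = 0.0417), where it was the 1 member of 24 called (higher, as were 2.47% of all). Without Ctr replicate 3 or Ctr replicate 4 the earliest Snrpb call ended (adjusted p = 0.226 and 0.253), as did the one at 1 to 2 h (0.111 and 0.136), and Snrpd3 at 1 to 2 h had adjusted p = 0.0531 without Ctr replicate 3.

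Srsf2 encodes an SR protein that binds exonic enhancers and whose own transcript is controlled by splicing. At 4 h its 3 arrays had 6728, 6950 and 5048, against 3671, 2440, 2248 and 2162 on the Ctr arrays, with no overlap. The log2 change was 1.26 ± 0.24 (SE; limma adjusted p = 0.000516). The rise was already present at 2 h, with 4993 and 5603, and at 7 h the arrays had 2310, 2984 and 5483 and overlapped with Ctr. Over 4 to 8 h the change was 0.79 ± 0.17 (SE; limma adjusted p = 0.000938), with 15 of 17 arrays above the Ctr mean. A dimmer Srsf2 probe set changed by 1.18 at 4 h (limma adjusted p = 0.00305) but by 0.42 over 4 to 8 h, which did not pass (adjusted p = 0.114).

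Of the other SR genes, Srsf11 had a log2 change of 0.57 ± 0.27 at 4 to 8 h (SE; limma adjusted p = 0.115) and Srsf5 one of 0.09 ± 0.26 (adjusted p = 0.835). Neither passed. The branch-point gene Sf3b1, brightest and only member of its group on this array, had 0.32 ± 0.27 (adjusted p = 0.398), and Prpf3, a protein of the U4/U6 snRNP, had 0.16 ± 0.16 (adjusted p = 0.477). No U2af gene was among the members in this course.

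The hnRNP genes gave 8 of the 11 probe sets called at 4 to 8 h, of 16 tested. Hnrnpab, the brightest of them, had 3821, 4321 and 5199 (lowest, median and highest of 17 arrays), against 3221, 3234, 2383 and 2127 on the Ctr arrays. The groups did not overlap. The change was 0.68 ± 0.11 (SE; limma adjusted p = 4.28e-05), and the gene was called at each of the 6 times of that window. By 12 h its 2 arrays had 2196 and 2141, below 3 of the 4 Ctr arrays.

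Hnrnpf, which binds runs of guanines, showed the largest change among the members called at 4 to 8 h. Its arrays had 1269, 2315 and 3600, against 1585, 1825, 895 and 734 on Ctr arrays, so the groups overlapped although all 17 were above the Ctr mean. The change was 0.96 ± 0.24 (SE; limma adjusted p = 0.00338), and without the 9 arrays of low correlation described below it was 0.78 and did not pass (adjusted p = 0.135). Hnrnpc, which binds uridine-rich intron stretches, peaked at 5.5 h with 2455, 2822 and 2840, against 1612, 1583, 1080 and 1090 on Ctr arrays (log2 change 1.02 ± 0.21, SE; limma adjusted p = 0.00148). Over 4 to 8 h it changed by 0.60 ± 0.15 (SE; adjusted p = 0.00362), with 15 of 17 arrays above the Ctr mean.

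Hnrnpu, an abundant nuclear RNA- and chromatin-binding protein, had 1374, 1794 and 2497 at 4 to 8 h, against a Ctr range of 776 to 1522 (log2 change 0.65 ± 0.15, SE; limma adjusted p = 0.00204). Its second probe set had 0.58 (adjusted p = 0.0412), a call that ended in 15 of 30 other settings. Without the 9 arrays of low correlation the Hnrnpu call ended (adjusted p = 0.0806). Hnrnpa2b1, chosen for mention after its values were seen, had 2456, 3413 and 4952, against a Ctr range of 1883 to 2416, without overlap (log2 change 0.62 ± 0.18, SE; limma adjusted p = 0.00802). Without those 9 arrays (adjusted p = 0.142) or without Ctr replicate 4 (0.0512) it did not pass. Other Hnrnpa2b1 probe sets had 0.09 and -0.0026 and did not pass.

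Probe sets of Hnrnpa1 disagreed. A pair that shares 1 accession had 0.58 and 0.49 at 4 to 8 h (limma adjusted p = 0.0305 and 0.0441), calls that ended in 11 and 20 of 30 other settings, whereas the brightest had 0.11 (adjusted p = 0.666) and a further one 0.07 (adjusted p = 0.830). Hnrnpa3 had 0.17 and -0.27 on its 2 probe sets, neither of which passed. Among the 24 probe sets tested, 3 accessions are shared by a pair each, so the 24 are fewer independent measurements than their number.

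**Figure D2:**
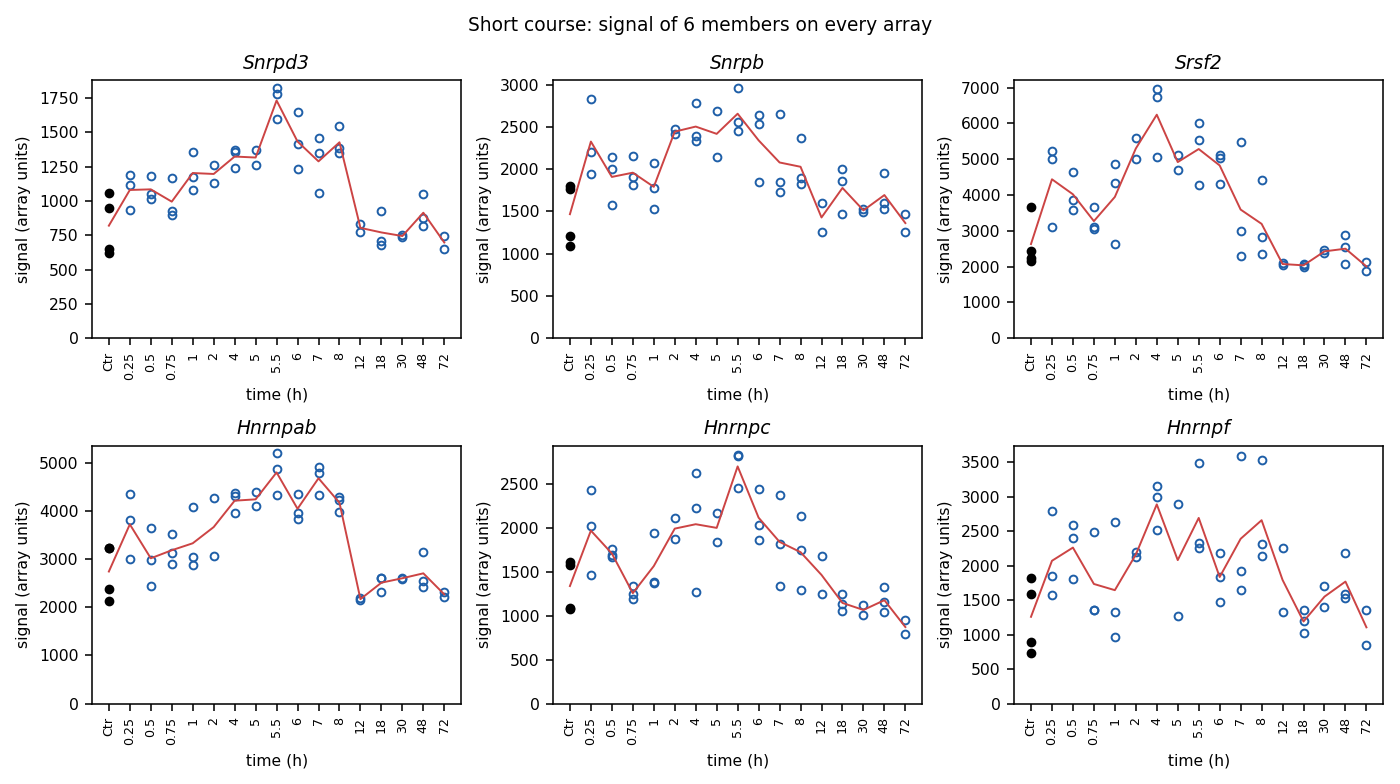
Signal (y axis, array units) of 6 short-course members on every array against time in hours (x axis, Ctr at the left, times evenly spaced). Filled points are Ctr arrays, open points treated arrays and the line joins the means; Srsf2 is highest at 4 h, with 5048 to 6950, and Hnrnpab stays between 3821 and 5199 from 4 to 8 h and has 2141 and 2196 at 12 h.

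The course of these genes over time can be read from single times. Over the 16 times, 34 of 384 member tests passed (8.85%, against 6.09% of all probe set tests), and all 34 were higher. The largest numbers were 8 of 24 at 5.5 h (8.63% of all probe sets higher) and 7 of 24 at 4 h (10.5% higher). The test over all 16 times passed for 9 of 24 members (37.5%, against 33.6% of all). After 8 h none of the members passed: 0 of 24 at 12 to 18 h (0.997% of all, 11 positive and 13 negative changes) and 0 of 24 at 30 to 72 h (0.0981%). At an unadjusted p under 0.05 limma gave 1 lower and 0 higher in each of these windows.

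The return was tested directly by setting 12 to 18 h against 4 to 8 h, a comparison chosen after the data were seen, which uses no Ctr array. In it 15 of 24 member probe sets were lower at 12 to 18 h (25.9% of all probe sets) and 0 higher (10.3%), with a median of -0.51, against -0.21 over all. Srsf2 had 1985, 2035, 2052, 2070 and 2110 at 12 to 18 h, against 2310, 5043 and 6950 (lowest, median and highest) at 4 to 8 h, a log2 difference of -1.11 ± 0.16 (SE; limma adjusted p = 5.42e-06). Hnrnpab differed by -0.89 ± 0.10 (adjusted p = 3.12e-07) and Snrpd3 by -0.82 ± 0.11 (adjusted p = 1.14e-06). With quantile normalization the median of all probe sets was -0.04 and 8 members were lower and 2 higher (Hnrnpm and a dimmer Hnrnpa2b1 probe set). With median centring it was 0.01, and 7 were lower and the same 2 higher. All probe sets split into 629 higher and 1587 lower as reported, 701 and 758 with quantile normalization and 1058 and 612 with median centring. Without 12 h replicate 2 the count of lower members was 9, and the share of all probe sets called without that array is not given here.

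Other measures moved in the same window. All 4 neutrophil markers tested were higher at 4 to 8 h (median log2 change 1.69). The summed signal of the 5 neutrophil markers measured, tested or not, was 11967 to 21484 (median 14217), against 1216 to 25793 (median 8206) on Ctr arrays. Lcn2, which hepatocytes also make in the acute phase, carried 87.9% of the mean signal of the 5 neutrophil markers measured, over all arrays. The lowest signal of any of these 5 markers on any array was 11.8 at 4 to 8 h and 6.19 on Ctr arrays. Of 6 hepatocyte markers, 2 were lower (median log2 change -0.47). The summed hepatocyte signal was 53100 to 98655, against 48897 to 178936 on Ctr arrays, where a single hepatocyte marker read as low as 0.152. The log2 ratio of the 3' to the 5' GAPDH probe sets averaged -0.02 at 4 to 8 h, against 0.14 on Ctr arrays. Mean correlation with the other arrays was under 0.9 on 4 of 17 arrays at 4 to 8 h, against 2 of 4 Ctr arrays. Of the other marker lists, 1 of 2 cholangiocyte and 1 of 3 Kupffer cell or macrophage markers were lower, and of 3 endothelial markers 1 was higher and 1 lower. At 12 to 18 h, when the members were back near Ctr, 0 of the 4 neutrophil markers tested (median 1.20) and 0 of the 6 hepatocyte markers (median 0.06) passed. The summed signal of the 5 neutrophil markers measured was then 14353 to 24571. The GAPDH log2 ratio averaged 0.13, and 0 of 5 arrays had a correlation under 0.9. The part of these measures in the member changes was not tested. Ctr replicates 1 and 2 were above Ctr replicates 3 and 4 in all 8 genes called higher at 4 to 8 h. These were Snrpd3, Snrpb, Srsf2, Hnrnpab, Hnrnpc, Hnrnpf, Hnrnpu and Hnrnpa2b1, each by its brightest probe set. The mean log2 signal of the members tested was 9.54 and 9.67 on Ctr replicates 1 and 2, against 9.35 and 9.31 on 3 and 4. Over all probe sets tested it was 9.19 and 9.23, against 9.07 and 9.13. Without the 9 arrays of low correlation 5 members were called at 4 to 8 h, and without Ctr replicate 4, 7. The share of all probe sets called in these settings is not given here.

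**Figure D3:**
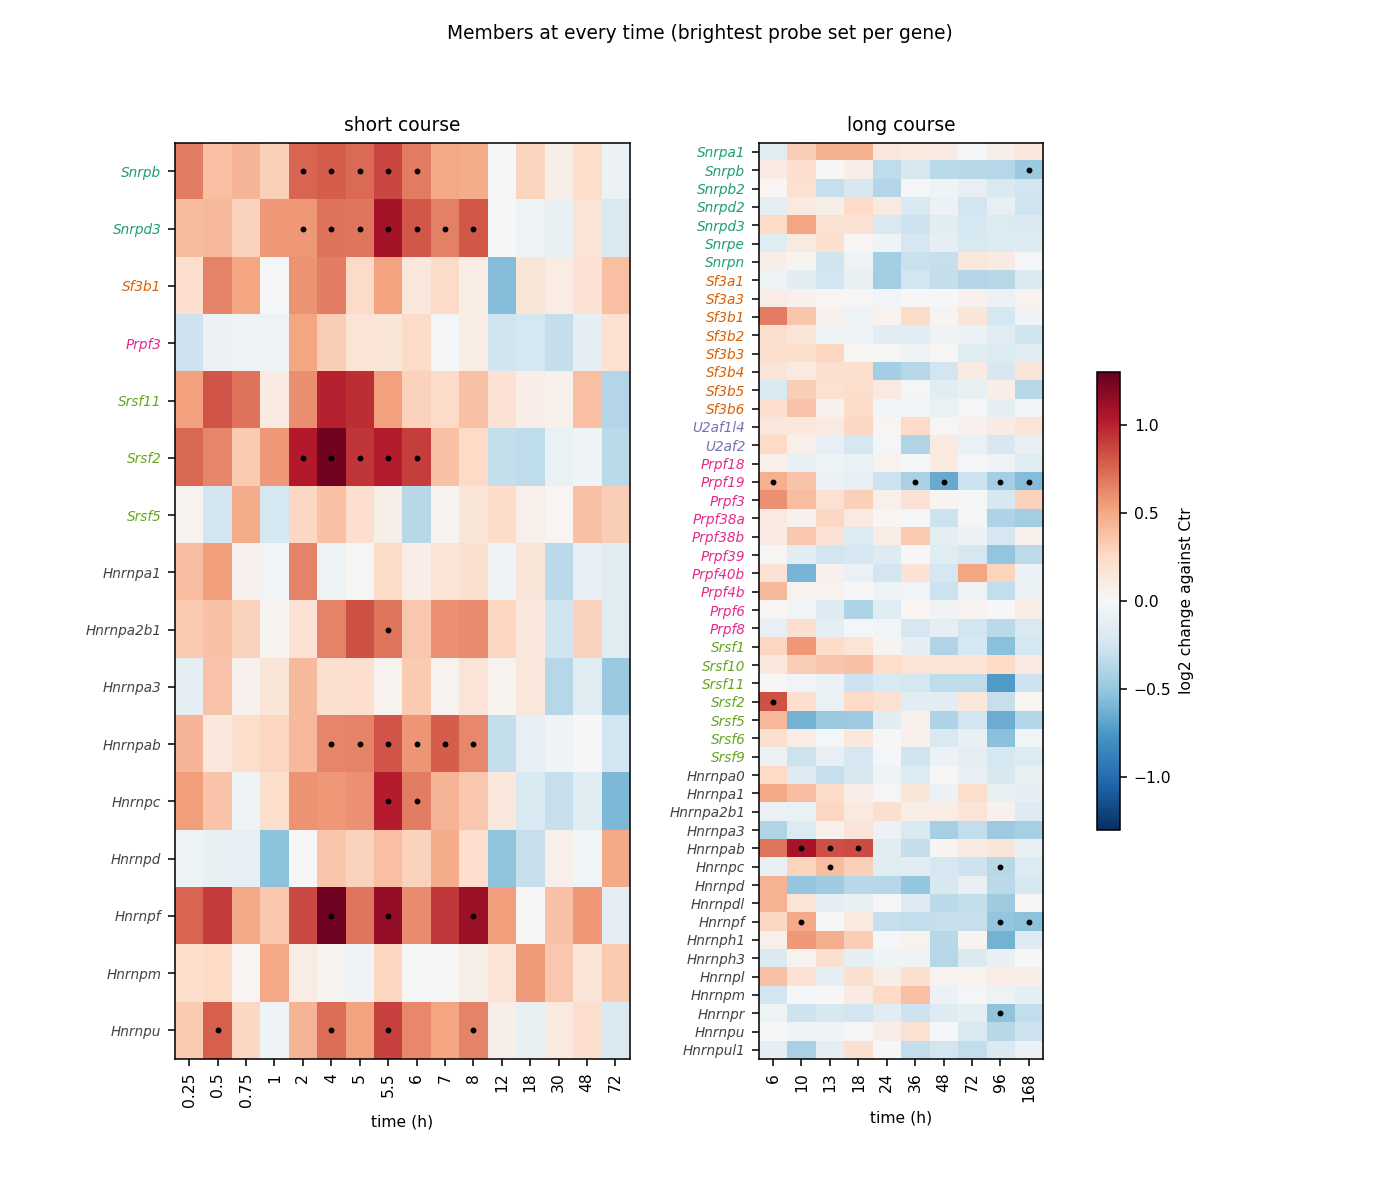
Log2 change against Ctr (colour, red higher and blue lower) of the brightest probe set of every member gene tested (rows, coloured by role as in the window plot) at every time in hours (columns). Dots mark adjusted p under 0.05; the dots of the short course lie between 0.5 and 8 h and are all on higher values, while those of the long course are on higher values up to 18 h and on lower values from 36 h.

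In the windows of the long course few members passed against Ctr, and their share was near or below that of all probe sets. Among single times, the share higher at 6 h and the share lower at 96 h were above those of all probe sets, as given below. At 6 to 18 h 1 of 65 was higher (1.54%, against 4.64% of all 11106) and 0 lower, at 24 to 48 h 1 of 65 was lower (1.54%, against 2.62%) and at 72 to 168 h 4 of 65 were lower (6.15%, against 6.01%). In either direction 9.31%, 5.23% and 10.8% of all probe sets were called in these windows. Over the 10 single times 20 of 650 member tests passed (3.08%, against 5.39% of all). Medians of the 65 were 0.08, -0.11 and -0.16 in these windows, against -0.03, -0.04 and -0.03 over all probe sets. The test over all 10 times passed for 16 of 65 members (24.6%, against 23.8%).

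Hnrnpab gave the early call. At 10 h it had 1551, 1157, 1164 and 1174, against 527, 996, 326 and 640 on the Ctr arrays, with no overlap (log2 change 1.07 ± 0.23, SE; limma adjusted p = 0.00189). It remained high at 18 h, where the arrays had 1389, 1664, 658 and 839 and spread widely. Over 6 to 18 h all 16 arrays were above the Ctr mean, with a change of 0.86 ± 0.18 (SE; limma adjusted p = 0.00126). At 24 h the 4 arrays had 525, 569, 423 and 566, within the Ctr range.

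Srsf2 was called at 6 h and at no later time. Its brightest probe set had 975, 800, 1028 and 957, against 383 to 661 on the 4 Ctr arrays (log2 change 0.83 ± 0.21, SE; limma adjusted p = 0.0158), and its other probe set had 386, 221, 371 and 306, against 176, 113, 171 and 197 (0.84 ± 0.17, SE; adjusted p = 0.000913). Neither overlapped with Ctr. The first of these calls ended without Ctr replicate 1 or Ctr replicate 2 (adjusted p = 0.0627 and 0.0693). In all, 5 of 65 members were higher at 6 h (7.69%, against 2.8% of all probe sets) and 0 lower, and both Srsf2 probe sets are among the 5. A dimmer Srsf1 probe set had 0.88 (adjusted p = 0.0293) and a dimmer Hnrnpdl probe set 0.61 (adjusted p = 0.0329). The brightest probe set of neither gene was called at 6 h.

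Prpf19, an E3 ubiquitin ligase that stabilises the activated spliceosome, was higher early and lower later. At 6 h it had 337, 327, 343 and 376, against 221, 309, 219 and 226 on the Ctr arrays (log2 change 0.46 ± 0.13, SE; limma adjusted p = 0.0214), and at 48 h 133, 134, 161 and 138 (-0.66 ± 0.13, SE; limma adjusted p = 0.000966). Both groups lay outside the Ctr range. Over 24 to 48 h the change was -0.45 ± 0.10 (adjusted p = 0.00440) and over 72 to 168 h -0.43 ± 0.10 (adjusted p = 0.00381), with all 12 arrays of each window below the Ctr mean. Without Ctr replicate 2, its highest Ctr array, the calls of both windows ended (adjusted p = 0.0715 and 0.0604), and the call at 6 h ended without Ctr replicate 1, 3 or 4 (0.0744, 0.0722 and 0.0575).

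**Figure D4:**
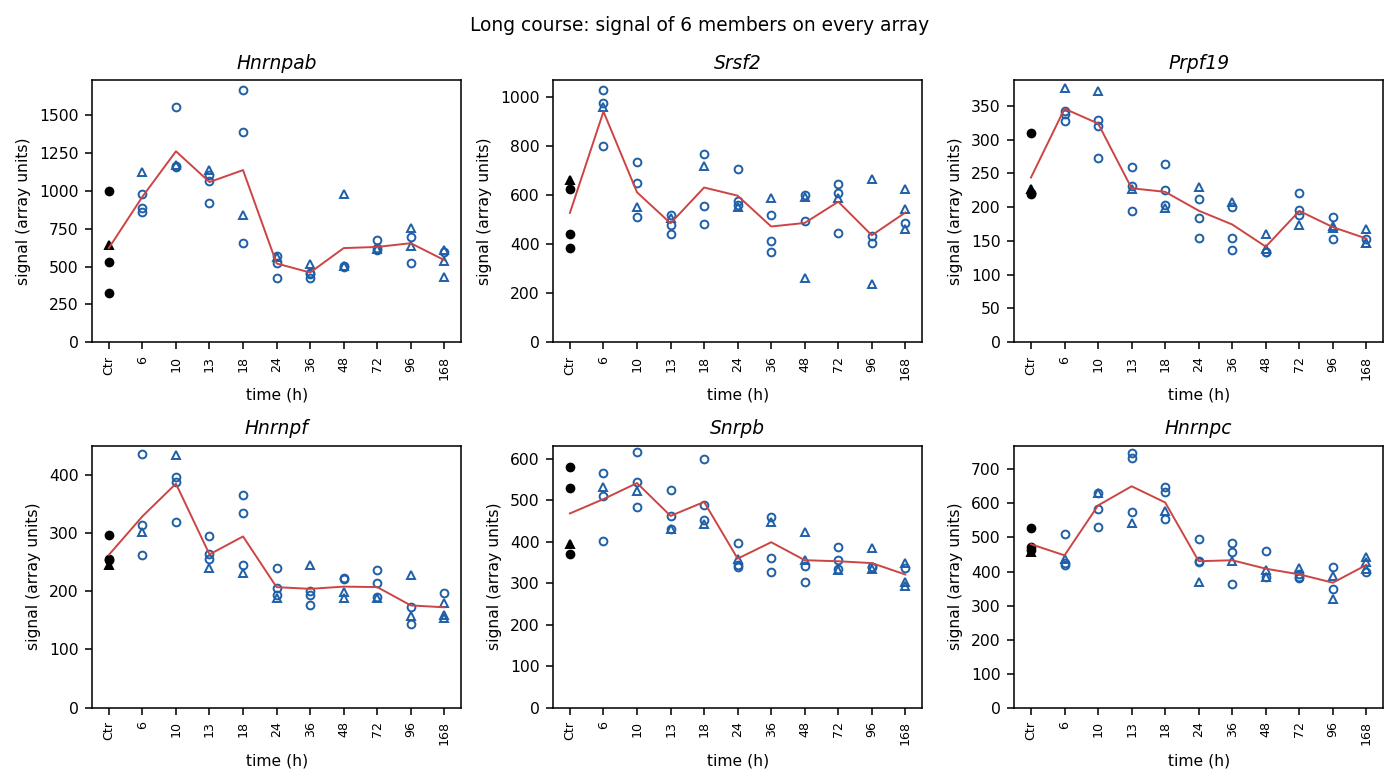
Signal (y axis, array units) of 6 long-course members on every array against time in hours (x axis, Ctr at the left, times evenly spaced). Filled points are Ctr arrays, open points treated arrays, triangles arrays with a high signal of the added control transcripts, and the line joins the means; Prpf19 has 327 to 376 at 6 h and 133 to 161 at 48 h, against 219 to 309 on Ctr arrays.

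A further 3 genes were lower at 72 to 168 h. Hnrnpf had 144, 184 and 237 (lowest, median and highest of 12 arrays), against 255, 296, 254 and 245 on the Ctr arrays, without overlap (log2 change -0.45 ± 0.11, SE; limma adjusted p = 0.00610). At 10 h it had been higher, with 388, 397, 320 and 435 (0.50 ± 0.14, SE; adjusted p = 0.0201), a call that ended without 10 h replicate 1, 2 or 4 or without Ctr replicate 1, 3 or 4 (0.0502 to 0.0825). Snrpb had 294, 338 and 387 at 72 to 168 h, against 579, 529, 369 and 395 (-0.41 ± 0.11, SE; adjusted p = 0.00920), and the groups overlapped. Without Ctr replicate 1 or Ctr replicate 2 the Snrpb call ended (adjusted p = 0.109 and 0.0647).

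Hnrnpc had 320, 395 and 444 at 72 to 168 h, against 527, 464, 473 and 456 on the Ctr arrays, without overlap, but its change of -0.27 ± 0.09 (SE; limma adjusted p = 0.0474) passed in 7 of 28 other settings only. It too had been higher earlier, with 734, 576, 748 and 544 at 13 h (0.40 ± 0.11, SE; adjusted p = 0.0277), which ended without 13 h replicate 1 or 3 or without Ctr replicate 3 or 4 (0.0635 to 0.136). The number of members called at 72 to 168 h was 1 without Ctr replicate 2 and 8 without Ctr replicate 4. The share of all probe sets called without either of these Ctr arrays is not given here. At 96 h 5 of 65 were lower (7.69%, against 4.54% of all probe sets lower and 8.09% called in either direction). Among them was a dimmer Hnrnpa3 probe set with 142, 145, 109 and 172, against 245, 297, 360 and 193 on Ctr arrays (-0.80 ± 0.23, SE; adjusted p = 0.0261).

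No SR, SF3a, SF3b or U2AF member passed in any window, and Prpf19 and Snrpb were the members of their groups that did. The brightest snRNP gene, Snrpe, an Sm protein, had -0.18 ± 0.11 at 72 to 168 h (SE; limma adjusted p = 0.344), and Snrpd3 had 0.29 ± 0.17 at 6 to 18 h (adjusted p = 0.339), although its test over all times passed (adjusted p = 0.0437). Sf3b4, an SF3b subunit, had -0.35 ± 0.16 at 24 to 48 h (adjusted p = 0.234), although its test over all times passed (adjusted p = 0.0267), and the brightest of its group, Sf3b6, 0.22 ± 0.13 at 6 to 18 h (adjusted p = 0.337). The U2AF members were U2af2, with -0.13 ± 0.17 at 72 to 168 h (adjusted p = 0.705), and U2af1l4, with 0.17 ± 0.20 at 6 to 18 h (adjusted p = 0.692). Prpf8, a large protein at the catalytic centre, had -0.26 ± 0.12 at 72 to 168 h (adjusted p = 0.186). Over all times the hnRNP genes Hnrnpd (adjusted p = 0.0121) and Hnrnpa0 (0.0469) also passed, with largest changes of -0.50 at 36 h and -0.30 at 13 h that did not pass alone (0.183 and 0.196), and so did Srsf1 (0.000840), with 0.57 at 10 h. At 72 to 168 h Srsf11 had -0.45 ± 0.22 (adjusted p = 0.205), and Hnrnpa3, the brightest hnRNP, -0.41 ± 0.15 (adjusted p = 0.0787).

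The late against the early window gave more calls than either against Ctr. In 72 to 168 h against 6 to 18 h, chosen after the data were seen and free of Ctr arrays, 26 of 65 member probe sets were lower (12.1% of all probe sets) and 0 higher (9.07%). The median was -0.23, against -0.01 over all. By genes, 19 of 50 were lower, made up of 4 of 7 snRNP proteins, 3 of 8 SF3a or SF3b proteins, 0 of 2 U2AF proteins, 4 of 10 Prpf proteins, 2 of 7 SR proteins and 6 of 16 hnRNP proteins. Prpf6 was higher under quantile normalization (0.24, adjusted p = 0.0202), and 24 members were then lower. The share of all probe sets called in this comparison under quantile normalization is not given here.

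Hnrnpab differed most among the genes of that comparison, with 429, 612 and 758 at 72 to 168 h (lowest, median and highest of 12 arrays), against 658, 1116 and 1664 at 6 to 18 h (16 arrays). The log2 difference was -0.80 ± 0.12 (SE; limma adjusted p = 5.19e-06). Hnrnpf differed by -0.67 ± 0.08 (adjusted p = 1.58e-08) and Srsf1, an SR protein, by -0.65 ± 0.11 (adjusted p = 1.80e-05), with 131, 303 and 397 at 72 to 168 h, against 333, 479 and 681 at 6 to 18 h. Snrpb differed by -0.51 ± 0.07 (adjusted p = 1.32e-06), and Prpf19 by -0.59 ± 0.07 (adjusted p = 3.40e-08).

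**Figure D5:**
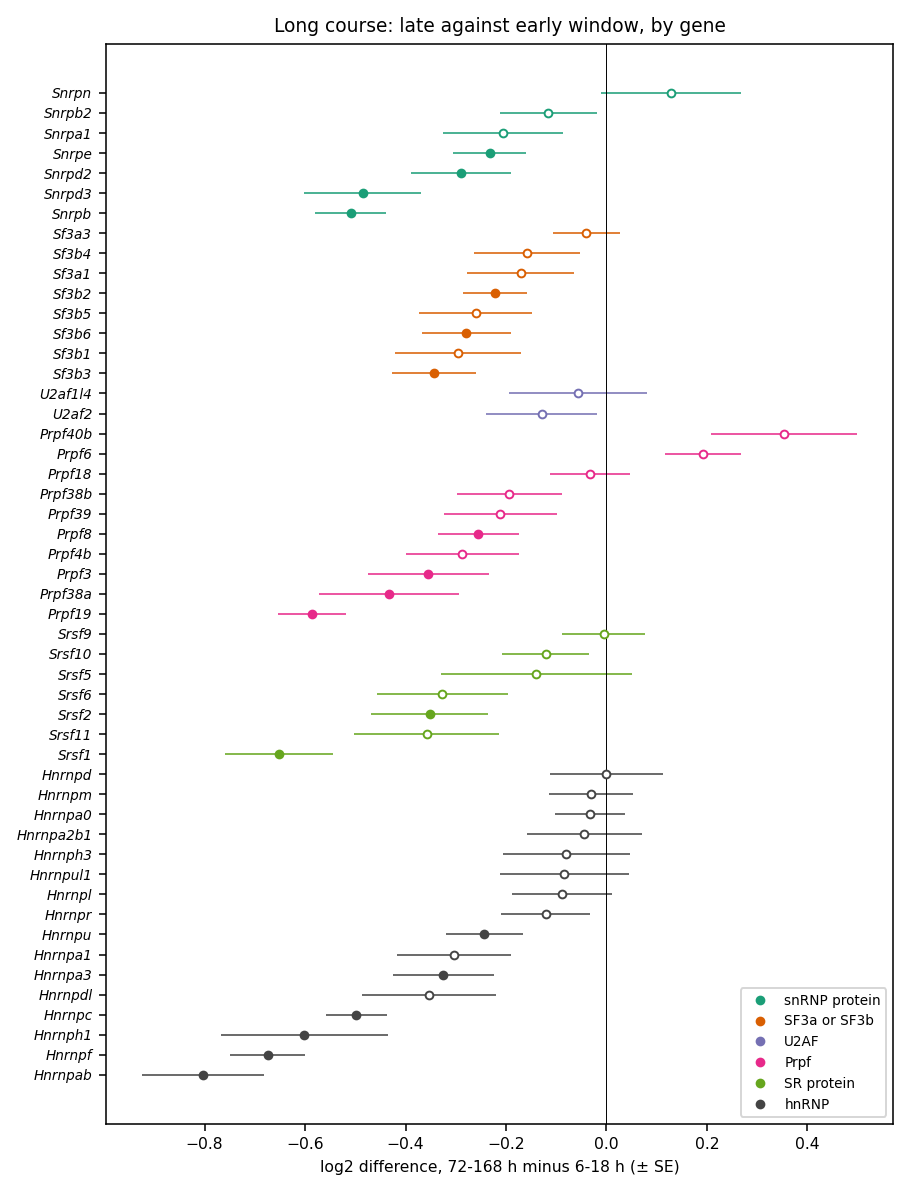
Log2 difference (x axis) between 72 to 168 h and 6 to 18 h in the long course for the brightest probe set of each member gene (y axis, grouped and coloured by role). Bars are standard errors and filled points had an adjusted p under 0.05; 19 of 50 genes are filled, all below 0, from Hnrnpab at -0.80 to Sf3b2 at -0.22.

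The signal of the added control transcripts was high on 15 arrays, being 1 of 4 Ctr arrays, 4 of 16 at 6 to 18 h, 4 of 12 at 24 to 48 h and 6 of 12 at 72 to 168 h. By replicate number these were 0 of 11 arrays numbered 1, 1 of 11 numbered 2, 3 of 11 numbered 3 and all 11 numbered 4. The mean of the members was lowest on the replicate 4 array in 6 of the 11 groups. With replicate number as a block, 32 members differed between 72 to 168 h and 6 to 18 h (31 lower, and Prpf40b higher), and with the spike-in level as a block 24 did. With the 29 other arrays alone, 17 members were lower at 72 to 168 h than at 6 to 18 h and 0 higher. The shares of all probe sets called with these blocks and arrays are not given here. The log2 GAPDH 3' to 5' ratio averaged 0.10 on Ctr arrays, 0.20 at 6 to 18 h, 0.28 at 24 to 48 h and 0.36 at 72 to 168 h. Of 6 Kupffer cell or macrophage markers 3, 5 and 3 were lower in the successive windows. Their summed signal was 2107 to 2469 on Ctr arrays, 983 to 2269 at 6 to 18 h, 1010 to 1479 at 24 to 48 h and 927 to 2755 at 72 to 168 h, and the lowest signal of any marker was 71.7. The B cell list had 1 marker tested, Cd74, which macrophages also express, and it was lower in all 3 windows (-0.81, -1.58 and -1.70). The cholangiocyte list had 1 marker tested, Epcam, and it was lower at 6 to 18 h (-0.36) and 72 to 168 h (-0.67). Of 6 stellate cell or fibroblast markers 1 was lower at 24 to 48 h, and 1 was higher and 1 lower at 72 to 168 h. The summed signal of the 2 B cell markers measured, tested or not, was 689 to 1008 on Ctr arrays and 326 to 804 at 6 to 18 h. It was 121 to 480 at 24 to 48 h and 183 to 452 at 72 to 168 h. The part of the spike-in difference, of RNA quality and of these cells in the member changes was not tested.

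Where both courses held the same time, the values stood as follows. At 6 h 5 of 24 members were called in the short course, all higher (7.4% of all probe sets higher). They were Srsf2, Snrpd3, Snrpb, Hnrnpc and Hnrnpab. Srsf2 had 0.90 in the short course and 0.83 in the long course, called in both. Snrpd3 had 0.81 (called) and 0.25 (adjusted p = 0.644). Snrpb, Hnrnpc and Hnrnpab were not called at 6 h in the long course. At 18 h Hnrnpab had -0.10 in the short course (adjusted p = 0.928) and 0.85 in the long course (called). At 48 and 72 h 0 of 24 members passed in the short course (0.262% and 0.049% of all probe sets). In the long course 1 of 65 passed at 48 h (4.01%) and 0 at 72 h (5.74%). The arrays and scales differ between courses and the differences were not tested.

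Other genes of splicing, from a list of 110, were lower in no window of the short course. Of 29 tested there, 4 were higher at 0.25 to 0.75 h, 6 at 1 to 2 h and 13 at 4 to 8 h, and 0 later. Over all probe sets 2.47%, 7.22% and 16.4% were higher in these 3 windows. Ddx39a, an RNA helicase of mRNA export, changed by 1.68 ± 0.25 at 4 to 8 h (SE), with 654 to 1871 over 17 arrays, against 205 to 536 on Ctr arrays. Sfpq, a nuclear RNA-binding protein of paraspeckles, changed by 1.04 ± 0.16, with 680 to 1167, against 290 to 601, and Ddx39b, a relative of Ddx39a, by 0.87 ± 0.24 at 1 to 2 h.

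Of 88 tested in the long course, 5 were higher at 6 to 18 h (4.64% of all probe sets higher). At 24 to 48 h 1 was higher and 1 lower (2.61% and 2.62% of all). At 72 to 168 h 2 were higher and 3 lower (4.81% and 6.01% of all). Ddx39a changed by 1.20 ± 0.21 and Sfpq by 0.53 ± 0.18 at 6 to 18 h (limma adjusted p = 0.0471 for Sfpq). Usp39, a protein of the tri-snRNP, was higher at 24 to 48 h (0.42 ± 0.11) and Pcbp2, a poly(C)-binding protein, lower (-0.41 ± 0.12). At 72 to 168 h Clk3, a kinase of SR proteins, was higher (0.52 ± 0.17), and Lsm8 and Lsm7, which bind the U6 snRNA, were lower (-0.45 ± 0.15 and -0.41 ± 0.13).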

How the data were processed

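The authors deposited 1 table of intensity values per course, 1 signal per probe set and array, per the file headers. How scans became signals is not given in the sources used here. One array, 6 h replicate 3 of the short course, had a trimmed mean (2% off each end) far below the others and was multiplied up to their median. Signals became log2(signal + 32), control probe sets and those under the 30th percentile of mean signal were left out, and 1 mean per time was fitted per course with limma 3.58.1 (R 4.3.3, lmFit, eBayes with trend). Windows are unweighted means of times minus Ctr. P-values were adjusted over all 6118 or 11106 probe sets, and a p under 0.05 was called. The procedure was tested on simulated data. The number of arrays limits precision.

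Members and lists were chosen with earlier results of these data known. Genes stand for their brightest probe set. Named were, per window, up to 6 higher and 6 lower genes of largest change, per course the 12 smallest adjusted p over all times, the brightest of each role, genes called in both courses, and up to 2 other splicing genes a direction. Symbols came from the platform annotation. Long-course 96 h replicate 1 is described as 72 h, and its title was followed. Same-numbered arrays did not all deviate together (median residual correlations -0.01 and 0.06, lowest -0.63 and -0.19), so no block was used, although in the long course all 11 replicate 4 arrays had a high spike-in signal. Promoters came from RefSeq (GRCr8, first-listed start).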

Additional observations from a re-analysis of the deposited data

Results flagged for a closer look

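Between windows, log2 differences passed the test for several named genes. In the short course, 12 to 18 h minus 4 to 8 h, they were -1.11 for Srsf2, -0.89 for Hnrnpab, -0.82 for Snrpd3, -0.68 for Hnrnpf, -0.66 for Hnrnpu, -0.63 for Hnrnpc, -0.54 for Snrpb and -0.42 for Hnrnpa2b1. In the long course, 72 to 168 h minus 6 to 18 h, they were -0.80 for Hnrnpab, -0.67 for Hnrnpf, -0.65 for Srsf1, -0.59 for Prpf19, -0.51 for Snrpb, -0.50 for Hnrnpc, -0.49 for Snrpd3, -0.35 for Srsf2 and -0.33 for Hnrnpa3. Both comparisons were chosen after the data were seen.

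Single arrays lay far from the others of their group of 4 in 7 of 140 groups checked (5.0%), and chance alone flags about 1 in 20. All 7 were in the long course, which held 132 of these groups, against 8 in the short course. Hnrnpab stood at 1551 on 10 h replicate 1 and at 981 on 48 h replicate 3, both above the rest. Prpf19 stood at 309 on Ctr replicate 2, above the other Ctr arrays. Srsf1 stood low at 131 on 96 h replicate 3 and high at 397 on 168 h replicate 4. Snrpb stood high at 384 on 96 h replicate 3, and Srsf2 high at 706 on 24 h replicate 2.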

How the results depend on the processing

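Each count of members called was recomputed with other scaling, added constants, filters, weights, blocks and arrays left out. The share of all probe sets called is not set beside the counts of this section. They do not show whether the members moved apart from the array as a whole. With 6 h replicate 3 of the short course on its deposited scale, the counts were 1 over all times, 2 summed over single times, 0 at 0.25 to 0.75 h, 0 at 1 to 2 h, 0 at 4 to 8 h and 3 for 12 to 18 h minus 4 to 8 h, and at 6 h Snrpb turned to -0.10, Hnrnpc to -0.11 and Hnrnpab to -0.21. Array weights gave 16 over all times and 2 at 0.25 to 0.75 h in the short course, and 30 over all times in the long course. The earliest window fell to 0 with quantile normalization, with median centring and with no filter on dim probe sets, and median centring gave 9 for 12 to 18 h minus 4 to 8 h. The replicate block was left out of the main design because same-numbered arrays did not all deviate together. In the short course it gave 18 summed over single times, 0 at 0.25 to 0.75 h, 0 at 1 to 2 h and 6 at 4 to 8 h. In the long course it moved no count by over 1.5 times (23 over all times, 5 at 72 to 168 h and 32 for 72 to 168 h minus 6 to 18 h). Prpf40b, higher at 72 to 168 h than at 6 to 18 h, passed with this block (0.35, limma adjusted p = 0.0444). Without a block it had 0.35 and did not pass (limma adjusted p = 0.0797). For 12 to 18 h minus 4 to 8 h, a dimmer Hnrnpa2b1 probe set passed as higher with array weights (0.34, limma adjusted p = 0.0196). Without weights it had 0.33 and did not pass (limma adjusted p = 0.0539). Without arrays of low correlation the short course had 13, 0, 1 and 5 for the same 4 counts, and the long course 2 at 6 to 18 h.

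Long-course arrays of low spike-in signal alone gave 10 summed over single times, 2 at 6 to 18 h and 17 for 72 to 168 h minus 6 to 18 h. The spike-in level as a block gave 2 at 6 to 18 h. The 15 arrays of high signal alone gave 0 for each of the 6 counts, with 1 Ctr array and few arrays a time. Leaving out 1 array at a time, the short course ranged from 7 to 11 over all times, 19 to 49 summed over single times, 0 to 4 at 0.25 to 0.75 h, 1 to 4 at 1 to 2 h, 7 to 11 at 4 to 8 h, 0 to 0 at 12 to 18 h and 30 to 72 h, and 9 to 16 for 12 to 18 h minus 4 to 8 h. The long course ranged from 12 to 25 over all times, 10 to 25 summed over single times, 1 to 2 at 6 to 18 h, 0 to 2 at 24 to 48 h, 1 to 8 at 72 to 168 h and 23 to 29 for 72 to 168 h minus 6 to 18 h. Of the single-member repeats 1133 kept their call, 379 lost it and 3 turned. The causes were not tested. The lowest and highest sums came without Ctr replicate 4 and Ctr replicate 2 in the short course, and without Ctr replicate 1 and 48 h replicate 3 in the long course. The count of 0 at 24 to 48 h came without Ctr replicate 2.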
